A study of Mus musculus with 8 samples.

Results

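The heat shock proteins and their co-chaperones were followed in the cerebral cortex of mice that express a human TDP-43 whose nuclear localization signal is mutated. Genes were taken by symbol from the deposited table of 10601 genes: the Hsp families a, b, d, e, h and 90, every Dnaj gene, the numbered Hsf, Bag and Cct genes, and none of Hspa5, Hsp90b1, Dnajb9, Dnajb11, Dnajc3 and Dnajc5, which belong to the endoplasmic reticulum or to vesicles. This gave 62 genes, or 63 transcripts, since Hspa14 is listed with 2, and the rule uses symbols only, although the table itself lists genes that passed the authors' minimum of 10 RPM in at least 1 mouse. All 63 were among the 10588 genes tested, of 28662 transcripts deposited. The name cytosolic holds for most members only: by what is known of their proteins, 9 of the 63 work in mitochondria (among them Hspa9, Hspd1, Hspe1, Dnaja3 and Dnajc11) and 6 in or at the endoplasmic reticulum (among them Hspa13, Dnajb12 and Dnajc10). Tcp1, the Cct1 subunit, does not match the rule and was treated as a partner gene.

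The bigenic mice (n = 4, Camk2a-tTa / deltaNLS-hTDP-43) carry a tTA activator under the Camk2a promoter, which is active in forebrain excitatory neurons, and a human TDP-43 transgene that tTA switches on once doxycycline is withdrawn. The nontransgenic mice (n = 4) carry neither transgene, and both groups are of strain C57BL/6. No group carries tTA alone, so that effects of tTA and of hTDP-43 cannot be told apart here. Doxycycline was withdrawn at an age of 28 days, brains were taken 10 days later, and 3 of the 4 mice in each group were male. RNA came from the whole right cortex. In bulk tissue fewer cells of a type and less RNA per cell cannot be told apart, which holds for every difference below.

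Hsp70 proteins bind unfolded stretches of other proteins and release them in a cycle driven by ATP. J-domain proteins (the Dnaj genes) bring clients to Hsp70 and start its ATPase, and nucleotide exchange factors (the Hsp110 proteins, the BAG proteins and Hspbp1) end the cycle. Hsp90 takes over partly folded clients such as kinases and steroid receptors, and the chaperonin CCT folds actin and tubulin inside a closed ring. Under heat or other proteotoxic stress the factor Hsf1 binds heat shock elements, inverted repeats of the unit GAA, and induces a subset of these genes. Hsp70 with class A and B J-domain proteins and Hsp110 can also take apart protein aggregates, and TDP-43 is a protein that aggregates in neurodegenerative disease.

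The heat shock element was looked for in the RefSeq promoter windows (GRCm38.p6, from 250 bases before to 50 after the start site), to show which members carry an exact match to it. Forms that differ from the printed motifs were not searched, so that a gene without a match may still carry an element. A window was found for 48 of the 62 genes. The 3-unit element GAANNTTCNNGAA, searched on both strands, was present in 4 of the 48 (8.33%), namely Dnajb6, Hspd1, Hspe1 and Hsph1, against 0.662% of all 27025 genes with a window. These are printed 5′ to 3′ on the gene's strand, with the repeat units in capitals; Hspd1 and Hspe1 share 1 interval between their head-to-head start sites, so their sequences are the reverse complement of each other, and the Hsph1 element lies after its start site.
Hspd1 (chr1:55088055-55088080, minus strand): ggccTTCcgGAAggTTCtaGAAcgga
Hspe1 (chr1:55088055-55088080, plus strand): tccgTTCtaGAAccTTCcgGAAggcc
Hsph1 (chr5:149636284-149636304, minus strand): cagaTTCtgGAAagTTCtcct
Dnajb6 (chr5:29735848-29735868, plus strand): ccgaGAAtcTTCcgGAAcgct

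The 2-unit forms lie inside the 3-unit element and are more common. GAANNTTC was present in 12 of the 48 genes (25.0%) against 9.04% of all genes, and TTCNNGAA in 8 (16.7%) against 9.6%. The 2-unit matches of the inducible Hsp70 pair, of Dnaja1 and of Bag3 are shown because these genes recur below. The flanks printed for Hspa1a and Hspa1b are identical.
Hspa1a (chr17:34972247-34972266, minus strand): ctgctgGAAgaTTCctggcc
Hspa1b (chr17:34959329-34959348, minus strand): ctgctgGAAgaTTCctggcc
Dnaja1 (chr4:40722338-40722357, plus strand): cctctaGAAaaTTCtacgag
Bag3 (chr7:128523619-128523632, plus strand): ggaccaGAAgtTTC
A match is a description of the window and not a binding site. Hsp90aa1, Hsp90ab1 and Hspa8 are among the 14 genes for which no window was read.

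Values are the authors' normalized counts, which are reads divided by a factor for each mouse and rounded. Mice are named by the order of their columns, which is not a replicate number. The depth recovered from the steps in the values was 10.6 to 31.9 M reads on genes per mouse. The second bigenic mouse was the shallowest at 10.6 M reads, where 3 reads correspond to 6.20 normalized counts, and it stood apart from its group: it was the highest or lowest of the 4 bigenic mice in 52 of the 63 members, with a median distance of 0.37 on the log2 scale from the other 3, against at most 0.11 for any other mouse. Many values that move with it are given with and without it. A fold change printed without such a note is from all mice and can also move, as for Ubqln4, at 0.51 with this mouse and 0.37 without. The fourth nontransgenic mouse was the highest or lowest of its group in 43 of the 63.

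The chaperone genes were called in both directions, and most were not called. Using limma on log2(value + 1) with the Benjamini-Hochberg adjustment over all 10588 genes and a threshold of 0.05, 13 of the 63 members (20.6%) differed between bigenic and nontransgenic mice, where 35.9% of all genes did. Of these, 6 were higher (Hspa9, Hspbp1, Dnaja3, Dnajc11, Dnajc12 and Cct2) against a background of 20.5%, and 7 were lower (Hspa2, Hspa12a, Hspa14, Dnaja1, Dnaja2, Cct4 and Cct6a) against 15.4%. All 13 had groups that did not overlap, as did 5 that were not called (Hsp90ab1, Hspb8, Dnajc13, Bag4 and Cct3), making 18 of 63 (28.6%) against 39.0% of all genes. No member was fitted at a change of 2-fold or more, and 3 of the called members (Hspa2, Dnaja1 and Dnajc12) passed 1.5-fold. The median log2 fold change was -0.04 over the members and 0.03 over all genes.

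**Figure D1:**
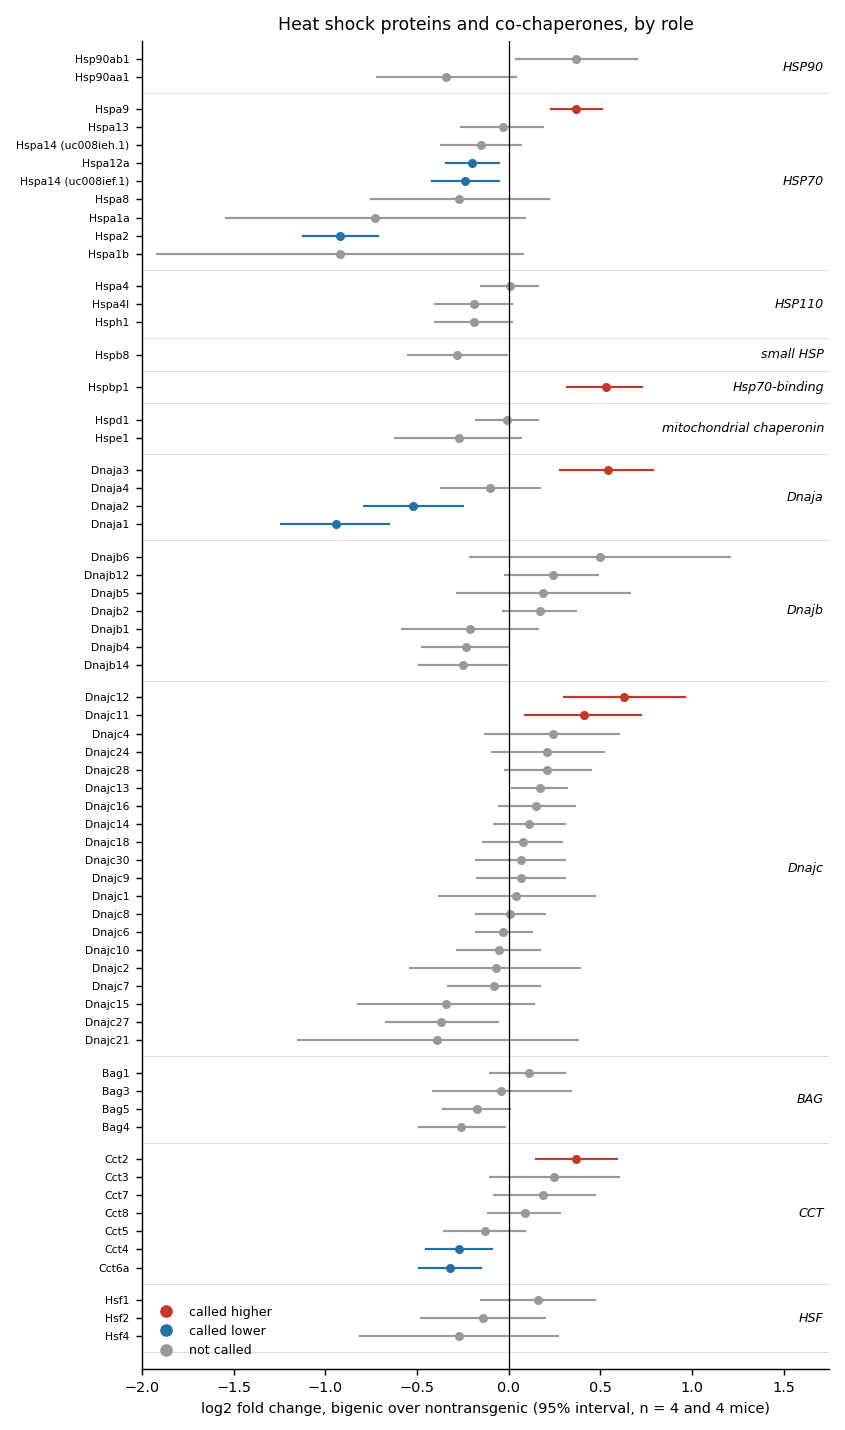
Log2 fold change of bigenic over nontransgenic mice (horizontal axis) for each of the 63 members, grouped by role, with the 95% interval from limma (n = 4 and 4 mice); red and blue points passed an adjusted p of 0.05. The 6 higher and 7 lower members are spread over the HSP70, Dnaja, Dnajc and CCT groups and Hspbp1, with none in HSP90, HSP110, Dnajb, BAG or HSF.

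Without the second bigenic mouse 22 of 62 members were called (10 higher and 12 lower), against 45.6% of all genes in the same fit. The 13 calls were all kept and 9 were gained, namely Hsp90ab1, Dnajc4, Dnajc13 and Dnajc28 as higher and Dnajc2, Dnajc7, Dnajc21, Dnajc27 and Bag5 as lower. Dnajb6 was not tested there, since only the second bigenic mouse had brought it over the filter of 10 RPM (relative to the column total). Bag3, Hspa1a and Hspa1b had passed through nontransgenic mice alone, and Dnajc4 and Dnajb6 through bigenic mice alone.

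**Figure D2:**
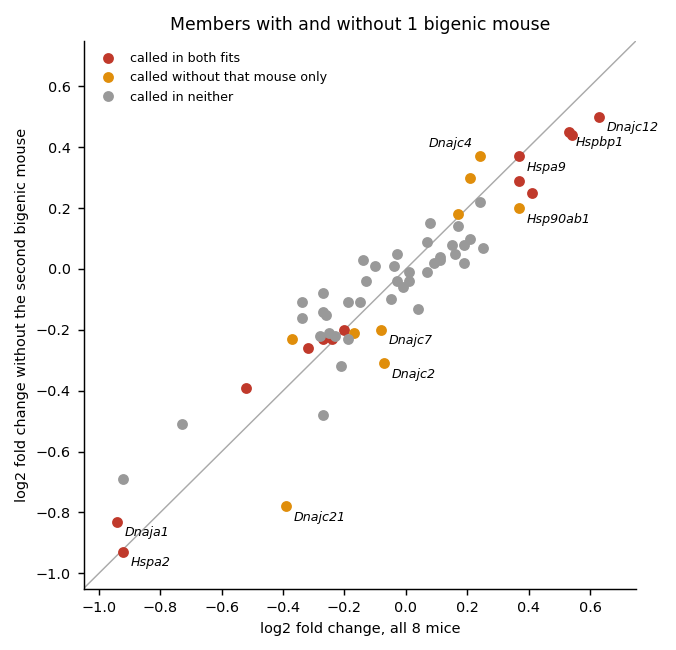
Log2 fold change of each member with all 8 mice (horizontal axis) and without the second bigenic mouse (vertical axis); the line marks equal values. Dnajc21 lies farthest below the line, at -0.39 with all mice and -0.78 without that mouse, while Hspa2 and Hspa9 lie on it.

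Neither HSP90 gene passed the test on the values as deposited with all mice weighted equally. Hsp90ab1, the constitutive cytosolic Hsp90, was the most abundant member per kilobase of exon (11510 normalized counts per kb in nontransgenic mice, against 3357 for Hsp90aa1 and 2767 for Cct6a). Its normalized counts were 40021, 63798, 40013 and 38702 in bigenic and 34144, 32801, 33578 and 37555 in nontransgenic mice. Every bigenic mouse was above every nontransgenic mouse, and the second bigenic mouse was far above the other 3. The log2 fold change was 0.37 ± 0.15 (SE, adjusted p = 0.0756, limma), and without that mouse 0.20 (adjusted p = 0.0194), so that both the call and the size of the difference depend on this library. With all mice it was also called after rescaling each mouse to the same total (adjusted p = 0.0492), after quantile normalization (adjusted p = 0.0258) and with array weights (adjusted p = 0.00273). Hsp90aa1, the stress-inducible form, measured 10392, 7156, 13385 and 11848 in bigenic and 14623, 11826, 12569 and 13768 in nontransgenic mice. The groups overlapped, and its log2 fold change was -0.34 ± 0.17 (adjusted p = 0.149) and -0.16 without the second bigenic mouse (adjusted p = 0.207). Of the 50-base windows in its exons, 43.8% occur once in the genome, against 92.8% for Hsp90ab1, and the authors kept reads with a single place only.

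Among the Hsp70 genes, Hspa2 fell and the mitochondrial Hspa9 rose, whereas the main cytosolic forms did not pass the test. Hspa2, an Hsp70 that is not induced by heat and is best known from spermatocytes (mm9 chr12:77505163-77507921, plus strand), measured 460, 449, 422 and 435 in bigenic and 803, 782, 788 and 978 in nontransgenic mice. Its means were 442 ± 16.5 and 838 ± 93.9 (SD, n = 4), so that its level fell by 47.3% (log2 fold change -0.92 ± 0.09, adjusted p = 0.000102), held in all 8 fits that left out 1 mouse. Hspa9, or mortalin, the Hsp70 of the mitochondrial matrix that pulls proteins through the import channel, measured 6568, 6409, 6410 and 6271 in bigenic and 4993, 4777, 5185 and 4928 in nontransgenic mice. The spread within either group was small beside the gap, and the log2 fold change of 0.37 ± 0.06 (adjusted p = 0.00179) was the same without the second bigenic mouse.

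Hspa8, the constitutive Hsc70 that also strips clathrin from vesicles, measured 2786, 2432, 4877 and 4889 in bigenic mice, which split into a low and a high pair around the nontransgenic range of 3788 to 4586. The log2 fold change was -0.27 ± 0.22 (adjusted p = 0.366) with an interval of -0.75 to 0.22, and -0.08 without the second bigenic mouse, and 62.7% of its exon windows occur once. The inducible pair had low values. Hspa1a measured 71, 48, 91 and 106 in bigenic and 107, 88, 103 and 260 in nontransgenic mice, and Hspa1b 40, 29, 58 and 77 against 70, 76, 60 and 219. In both genes the fourth nontransgenic mouse stood above the other 3 of its group, and without it both fell under the filter. The fitted differences of -0.73 ± 0.36 (adjusted p = 0.144) and -0.92 ± 0.45 (adjusted p = 0.133) did not pass the test. Without the second bigenic mouse they were -0.51 and -0.69. These neighbours lie 9961 bases apart on mm9 chromosome 17, and only 39.0% and 37.7% of their exon windows are unique, so that their values cover a part of each transcript and neither can be read as the total of its gene.

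The atypical Hsp70 genes changed little. Hspa12a, which has a divergent ATPase domain, measured 6157 to 6569 in bigenic and 6888 to 7743 in nontransgenic mice (log2 fold change -0.20 ± 0.07, adjusted p = 0.0421). This call was lost on leaving out any mouse except the second bigenic one, with adjusted p up to 0.117. Of the transcripts of Hspa14, uc008ief.1, from a ribosome-bound Hsp70, measured 403 to 453 against 464 to 536 (-0.24 ± 0.08, adjusted p = 0.047), and was called in 2 of 8 such fits, those without the first or the second bigenic mouse, with adjusted p up to 0.116. The other Hspa14 transcript (-0.15, adjusted p = 0.259) and Hspa13, found at the endoplasmic reticulum (-0.03, adjusted p = 0.824, and 0.05 without the second bigenic mouse), did not pass the test.

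**Figure D3:**
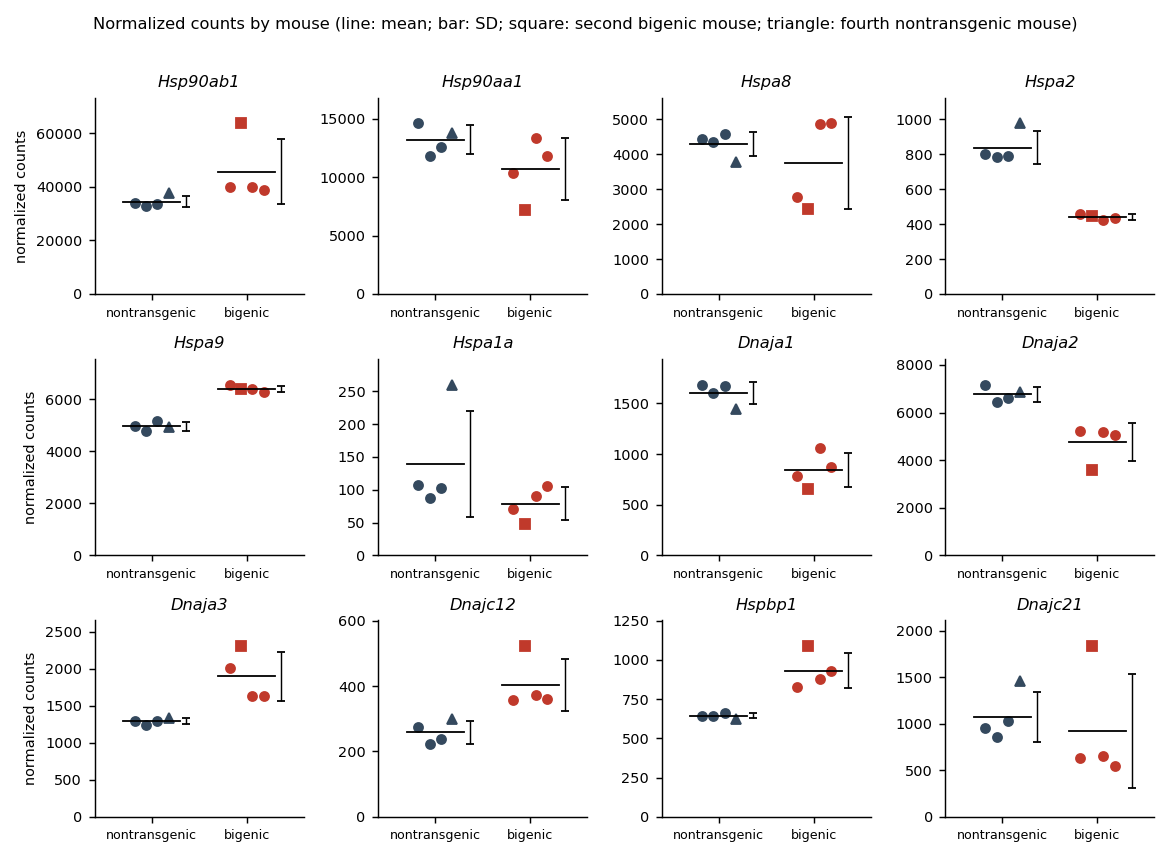
Normalized counts (vertical axis, linear from 0) of 12 members in each nontransgenic and bigenic mouse, with the mean as a line and the SD as a bar; squares mark the second bigenic and triangles the fourth nontransgenic mouse. Hspa2 and Dnaja1 were lower and Hspa9 and Hspbp1 higher in every bigenic mouse, whereas Hspa8 split within the bigenic group and Dnajc21 was high in the second bigenic mouse.

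None of the exchange factors with a BAG domain or of the Hsp110 family passed the test, and Hspbp1 rose. Hspbp1, which loosens nucleotide from Hsp70 (mm9 chr7:4612123-4636565, minus strand), measured 827, 1088, 879 and 930 in bigenic and 641, 645, 663 and 624 in nontransgenic mice, a rise of 44.7% (log2 fold change 0.53 ± 0.09, adjusted p = 0.00225) seen in every bigenic mouse. The Hsp110 genes were abundant. Hspa4 was at 10200 and 10150 normalized counts on average in bigenic and nontransgenic mice (0.01, interval -0.15 to 0.16), Hspa4l was at -0.19 (adjusted p = 0.135, and -0.11 without the second bigenic mouse) and Hsph1 at -0.19 (adjusted p = 0.139). Hsph1 read 16460 in the fourth nontransgenic mouse, against 13277 to 13792 in the other 3 of that group.

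Of the BAG genes, Bag4 came nearest to the threshold at 2091, 1599, 2201 and 2098 in bigenic and 2531, 2271, 2375 and 2302 in nontransgenic mice (-0.26 ± 0.10, adjusted p = 0.081, and -0.15 without the second bigenic mouse), with groups that did not overlap. Bag5 was at -0.17 (adjusted p = 0.131) and was called as lower without the second bigenic mouse (-0.21, adjusted p = 0.040). Bag1 was at 0.11 (adjusted p = 0.391, and 0.04 without that mouse). Bag3, which links Hsp70 to small heat shock proteins and to the autophagy of aggregates, was at -0.04 with an interval of -0.41 to 0.34 (adjusted p = 0.885). Its partner Hspb8, the small heat shock protein that matched the rule, measured 206, 159, 174 and 183 in bigenic and 208, 243, 218 and 207 in nontransgenic mice. These groups were separated by 1 normalized count, with a log2 fold change of -0.28 ± 0.12 (adjusted p = 0.0968).

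The class A J-domain genes, which hand unfolded clients to Hsp70, held 2 of the 7 members called lower. Dnaja1 (mm9 chr4:40669183-40684182, plus strand) measured 785, 658, 1057 and 873 in bigenic and 1686, 1601, 1676 and 1446 in nontransgenic mice. The highest bigenic mouse was well under the lowest nontransgenic mouse, and the mean level was 1602 ± 111 in nontransgenic and 843 ± 168 in bigenic mice (SD, n = 4), so that it fell by 47.4% (log2 fold change -0.94 ± 0.13, adjusted p = 0.000699). Its exons overlap those of Smu1 and Gm6297 on the opposite strand, and 85.9% of its windows are unique. Dnaja2 (mm9 chr8:88061539-88079170, minus strand), with unique windows throughout, measured 5222, 3590, 5196 and 5074 against 7171, 6460, 6603 and 6846 (-0.52 ± 0.12, adjusted p = 0.00834). Here the second bigenic mouse was the lowest, and the fall without it was -0.39 (adjusted p = 0.000325). Both calls held in all 8 fits that left out 1 mouse. Dnaja3, the mitochondrial member that works with mortalin, went the other way at 2013, 2306, 1635 and 1630 against 1293, 1246, 1297 and 1335 (0.54 ± 0.11, adjusted p = 0.00563, and 0.44 without the second bigenic mouse). Its exons overlap those of Vasn on the same strand and of Coro7 on the opposite strand. Dnaja4 was at -0.10 (adjusted p = 0.546, and 0.01 without the second bigenic mouse). The sum of the class was 7586 to 9342 in bigenic and 10663 to 11546 normalized counts in nontransgenic mice.

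No Dnajb gene passed the test with all mice. Dnajb14 was called as lower without the first bigenic mouse (-0.31, adjusted p = 0.0485) and Dnajb2 as higher without the fourth nontransgenic mouse (0.24, adjusted p = 0.0432). Of the 7, 4 were fitted above 0 and 3 below, with a median of 0.17 that turned to -0.10 without the second bigenic mouse, the mouse that alone brought Dnajb6 over the filter. Dnajb1 and Dnajb4, the class B partners of Hsp70 in aggregate solubilization, were at -0.21 (adjusted p = 0.336, and -0.32 without that mouse) and -0.23 (adjusted p = 0.108). Dnajb2, a neuronal J-domain protein with ubiquitin-binding motifs, was at 0.17 (adjusted p = 0.162). Dnajb6, known for holding back polyglutamine aggregation, measured 103, 252, 101 and 102 in bigenic and 78, 93, 72 and 125 in nontransgenic mice. Its log2 fold change of 0.50 ± 0.32 (adjusted p = 0.24) rested on the second bigenic mouse, and 51.2% of its windows are unique.

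The Dnajc genes, which share only the J domain, gave 2 higher and no lower calls among 20, against 20.5% and 15.4% of all genes. Dnajc12, a co-chaperone of the aromatic amino acid hydroxylases (mm9 chr10:62845191-62871588, plus strand), measured 358, 523, 374 and 362 in bigenic and 274, 224, 237 and 299 in nontransgenic mice, and rose by 56.4% (0.63 ± 0.15, adjusted p = 0.00876, and 0.50 without the second bigenic mouse). Dnajc11, a protein of the mitochondrial membranes, measured 1500, 2182, 1335 and 1428 against 1107, 1178, 1275 and 1214 (0.41 ± 0.14, adjusted p = 0.0477). Without the second bigenic mouse it was at 0.25 (adjusted p = 0.0141), and the call was lost without the first or the fourth bigenic mouse or any 1 of the nontransgenic mice, with adjusted p up to 0.12.

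Dnajc21, which acts in the maturation of the large ribosomal subunit, was split by the second bigenic mouse. It measured 632, 1836, 658 and 548 in bigenic and 951, 862, 1025 and 1464 in nontransgenic mice, so that 3 bigenic mice were below and 1 above the nontransgenic range. With all mice the log2 fold change was -0.39 ± 0.34 (adjusted p = 0.399), and without the second bigenic mouse -0.78 (adjusted p = 0.00196). Dnajc2, the J-domain partner of Hspa14 on the ribosome, was likewise highest in the second bigenic mouse, at 756, 1233, 606 and 567 against 793, 748, 762 and 872 (-0.07, adjusted p = 0.802, and -0.31, adjusted p = 0.0275). Dnajc27, at -0.37 ± 0.14 (adjusted p = 0.0612), was called as lower without the second or without the third bigenic mouse (adjusted p = 0.0479 and 0.0204). Dnajc6, the neuronal auxilin that recruits Hsc70 to clathrin coats, was at 6724 ± 362 and 6848 ± 300 (SD, n = 4; -0.03, interval -0.18 to 0.13). Dnajc13, a J-domain protein of endosomes, measured 2606 to 2741 against 2226 to 2501 without overlap (0.17 ± 0.07, adjusted p = 0.0712, and 0.18, adjusted p = 0.0309, without that mouse).

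The subunits of the chaperonin CCT, whose rings hold a copy of each subunit, did not move together. Cct2 rose, at 4825, 5509, 4209 and 4090 in bigenic and 3702, 3433, 3479 and 3675 in nontransgenic mice (0.37 ± 0.10, adjusted p = 0.0159). Cct6a fell, at 3809, 3162, 3716 and 3527 against 4642, 4254, 4369 and 4434 (-0.32 ± 0.08, adjusted p = 0.0107). Cct4 fell, at 2252, 1882, 2045 and 2058 against 2593, 2355, 2349 and 2628 (-0.27 ± 0.08, adjusted p = 0.026). The Cct6a call held in all 8 fits that left out 1 mouse, the Cct2 call in 7 (adjusted p = 0.051 without the second nontransgenic mouse) and the Cct4 call in 4 (lost without the third or the fourth bigenic or the first or the fourth nontransgenic mouse, with adjusted p up to 0.0771). Tcp1, the remaining subunit, measured 4090, 3869, 4467 and 4308 against 5698, 4612, 5018 and 5382 (-0.31 ± 0.09, adjusted p = 0.0199), and lost its call without the first or the fourth nontransgenic mouse (adjusted p = 0.0634 and 0.0504).

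The other 4 subunits did not pass the test. Cct3 measured 2132, 3541, 2134 and 2103 in bigenic and 2016, 1984, 2034 and 2069 in nontransgenic mice, where 3 bigenic mice lay just above the nontransgenic range and the second one far above it (0.25 ± 0.16, adjusted p = 0.23, and 0.07 without it). Cct7 was at 0.19, Cct8 at 0.09 and Cct5 at -0.13, and without the second bigenic mouse at 0.08, 0.02 and -0.04. Over the 7 subunits that match the rule the summed level was 23811 to 27640 normalized counts in bigenic and 23856 to 25620 in nontransgenic mice.

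**Figure D4:**
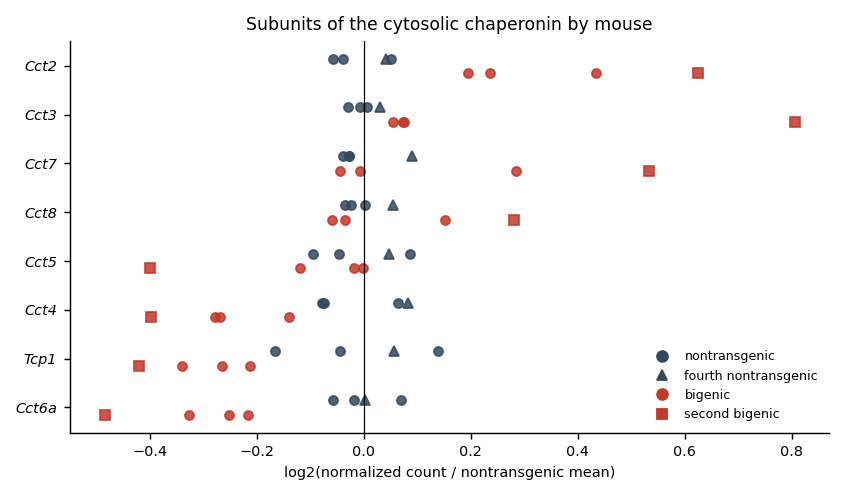
Log2 of the normalized count over the nontransgenic mean (horizontal axis) for the 8 measured CCT subunits in each mouse; squares mark the second bigenic and triangles the fourth nontransgenic mouse. All bigenic mice lie to the right of the nontransgenic mice for Cct2 and to the left for Cct4, Cct6a and Tcp1, and the second bigenic mouse is the outermost bigenic point in each row.

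No heat shock factor and none of the members on a list of heat-induced genes was called as higher. Hsf1 is controlled mainly after translation, so that its RNA says little of its activity. Hsf1 measured 340, 548, 429 and 458 in bigenic and 355, 419, 421 and 374 in nontransgenic mice (0.16, adjusted p = 0.393). Hsf2 was at -0.14 (adjusted p = 0.5) and Hsf4 at -0.27 (adjusted p = 0.409). Without the second bigenic mouse Hsf1 was at 0.05, Hsf2 at 0.03 and Hsf4 at -0.48 (adjusted p = 0.0579). Of 12 measured members known to be induced by Hsf1 under heat (Hspa1a, Hspa1b, Hspa8, Hsph1, Hspa4l, Hsp90aa1, Hspd1, Hspe1, Dnaja1, Dnajb1, Dnajb4 and Bag3), 0 were called higher and 1, Dnaja1, lower. Over all genes 20.5% were higher and 15.4% lower. At an unadjusted p under 0.05 Dnaja1 was also the only one of the 12, and Dnajb4 joined it as lower after quantile normalization (adjusted p = 0.0384). All 12 were fitted below 0 with all mice, with a median of -0.25, where the median of all genes was 0.03. Without the second bigenic mouse the median of the 12 was -0.19. Hspa1a, Hspa1b and Bag3 had passed the filter through nontransgenic mice alone, so that their sign is in part fixed by the filter, and the 8 of the 12 that passed in every mouse had a median of -0.22. Bag3 or Hspd1, both near 0, came out above 0 when certain mice were left out, and Hspa8 and Bag3 did when mice were weighted by their reliability. The summed level was 32143 to 40766 in bigenic and 40095 to 46867 in nontransgenic mice, and the fourth nontransgenic mouse held the highest sum. Of the 4 genes with the 3-unit element, Hspd1 was at -0.01, Hspe1 at -0.27, Hsph1 at -0.19 and Dnajb6 at 0.50, and none passed the test.

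**Figure D5:**
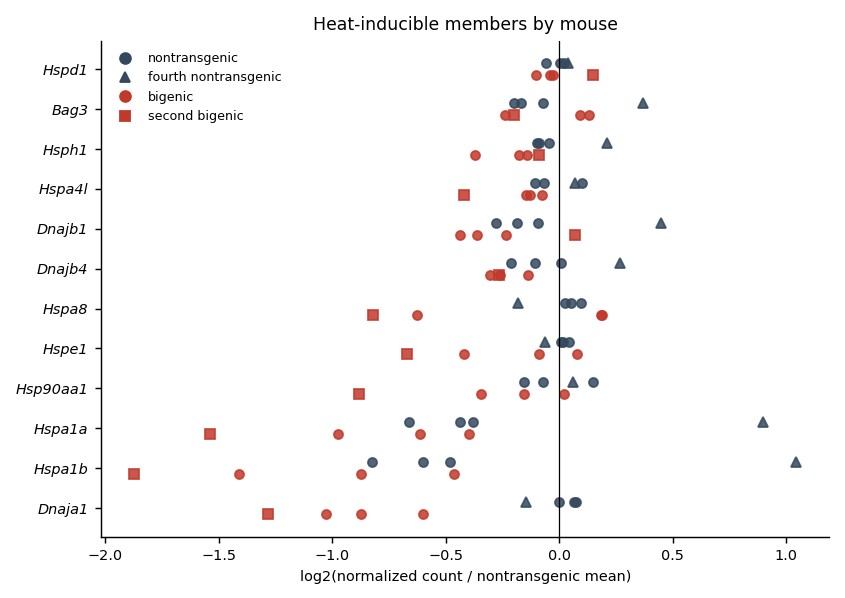
Log2 of the normalized count over the nontransgenic mean (horizontal axis) for the 12 heat-inducible members in each mouse; squares mark the second bigenic and triangles the fourth nontransgenic mouse. The groups overlap in every row except Dnaja1, and the fourth nontransgenic mouse lies far to the right for Hspa1a and Hspa1b.

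Genes of the cytosolic disaggregation activity overlap this set. Of the 10 (Hspa1a, Hspa1b, Hspa8, the 3 Hsp110 genes, Dnaja1, Dnaja2, Dnajb1 and Dnajb4), 0 were higher and 2 lower (15.4% of all genes were lower), with a median of -0.25, and their summed level of 36969 to 40584 in bigenic mice was below the 42228 to 48050 of nontransgenic mice. Hspa1a and Hspa1b were among the 10 through the fourth nontransgenic mouse alone, and without it the median of the remaining 8 was -0.15. The lower calls are both class A J-domain genes, described above.

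The mitochondrial members stood at a median of 0.21 and the members outside mitochondria and endoplasmic reticulum at -0.12. Of the 9 mitochondrial members 3 were higher (Hspa9, Dnaja3 and Dnajc11) and 0 lower, and of the 48 others 3 were higher and 7 lower, where 20.5% of all genes were higher and 15.4% lower. The difference between these lists was not tested. Of the 9, 5 were higher without the second bigenic mouse, among them Dnajc4, which had passed the filter through the first bigenic mouse alone. Without the first or the fourth bigenic mouse, or without any 1 of the nontransgenic mice, 2 were higher. With no filter on low values or after quantile normalization 2 were higher as well. In the fit without the first bigenic mouse Dnajc4 was not tested, and the median of the other 8 was 0.11. The summed level of the 9 was 13120 to 14165 in bigenic and 10764 to 11521 in nontransgenic mice. Fitted above 0 were 6 of the 9. Dnajc15, also among the 9, was at -0.34 ± 0.21 (adjusted p = 0.237, and -0.11 without the second bigenic mouse). Neither gene of the matrix chaperonin passed the test. Hspd1 measured 1542, 1836, 1623 and 1610 against 1658, 1589, 1680 and 1703 (-0.01, interval -0.18 to 0.16, with 49.1% of windows unique). Hspe1, its lid, measured 242, 203, 304 and 342 against 327, 325, 333 and 310 (-0.27 ± 0.15, adjusted p = 0.189, and -0.14 without the second bigenic mouse). Of the 6 members at the endoplasmic reticulum none passed the test.

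Partner genes of the same pathways that do not match the rule were read from the same fit. Of 71 measured, 22 were higher and 11 lower, with a median of 0.06, where 20.5% of all genes were higher and 15.4% lower; leaving out the first, the second or the third nontransgenic mouse left 13, 13 and 14 higher and 6, 7 and 7 lower, and leaving out the fourth left 6 lower. Of 28 Hsp90 co-chaperones, 9 were higher and 4 lower. Tomm34, which binds Hsp70 and Hsp90 on the way to mitochondrial import, measured 2244, 2502, 2244 and 2207 in bigenic and 1302, 1297, 1446 and 1381 in nontransgenic mice (0.76 ± 0.07, adjusted p = 9.23e-05). Ppp5c, a phosphatase that acts on the Hsp90 complex, was higher by 0.57 (adjusted p = 0.00101). Ptges3, the p23 protein that stabilizes closed Hsp90, measured 198, 199, 247 and 233 against 401, 393, 403 and 404 (-0.87 ± 0.10, adjusted p = 0.00027). Of its exon windows 51.1% occur once, and its exons overlap those of Baz2a on the same strand. Tomm70a, the import receptor that docks both chaperones, was at -0.77 (adjusted p = 0.0012). Stip1, the bridge between Hsp70 and Hsp90, measured 5663, 9581, 5649 and 5698 against 3619, 3523, 3489 and 4030 (0.82 ± 0.16, adjusted p = 0.00394, and 0.63 without the second bigenic mouse).

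Of 11 partners of Hsp70, 4 were higher and 3 lower, against 20.5% and 15.4% of all genes. Sgta, which passes tail-anchored proteins to their insertion route, was at 0.47 (adjusted p = 0.00121) and Ubqln4 at 0.51 (adjusted p = 0.0107). Ubqln2, a shuttle that carries ubiquitinated proteins to the proteasome, measured 3677, 2058, 3967 and 3871 in bigenic and 7132, 6116, 6110 and 5478 in nontransgenic mice (-0.91 ± 0.19, adjusted p = 0.00572, and -0.69 without the second bigenic mouse). Hsbp1, a small protein that binds Hsf1, was at -0.41 (adjusted p = 0.0132).

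Of 15 prefoldin and CCT partners, 3 were higher and 3 lower, against 20.5% and 15.4% of all genes. Among them was the largest log2 fold change of the 63 members and 71 partner genes. Pdrg1, a subunit of the prefoldin-like complex (mm9 chr2:152834626-152841163, minus strand), measured 3268, 3824, 3383 and 3313 in bigenic and 634, 706, 688 and 748 in nontransgenic mice. The means of 3447 ± 256 and 694 ± 47.2 (SD, n = 4) differed 4.97-fold (2.31 ± 0.08, adjusted p = 9.32e-07), its windows are unique, and it overlaps no other gene. Prefoldin itself, which feeds CCT, split. Pfdn2 measured 2885, 5030, 2329 and 2315 in bigenic and 1409, 1266, 1443 and 1759 in nontransgenic mice (1.03 ± 0.23, adjusted p = 0.00668, and 0.77 without the second bigenic mouse). Pfdn1 was at 0.41 (adjusted p = 0.00438) and Vbp1, another subunit, at -0.36 (adjusted p = 0.00675). Pfdn4 (-0.05) and Pfdn5 (-0.18) did not pass the test.

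Of 9 other mitochondrial chaperone genes 6 were higher and 1 lower, against 20.5% and 15.4% of all genes, with a median of 0.31. Dnlz, which keeps mortalin soluble, measured 830, 807, 905 and 993 in bigenic and 527, 552, 561 and 507 in nontransgenic mice (0.71 ± 0.09, adjusted p = 0.000321). Grpel1, the exchange factor of mortalin, measured 1427, 1553, 1413 and 1422 against 1113, 1040, 1078 and 918 (0.49 ± 0.08, adjusted p = 0.0017). Clpb, the mitochondrial disaggregase, was at -0.27 (adjusted p = 0.0417), a call lost without the first bigenic mouse or any 1 of the nontransgenic mice (adjusted p up to 0.108). The 12 measured genes on a list of other heat shock targets share Stip1, Fkbp4, Ptges3 and Tcp1, among others, with the partner lists above. Of the 12, 2 were higher (Stip1 and Fkbp4) and 2 lower (Ptges3 and Tcp1), calls already counted there. The median was -0.14. Without the second bigenic mouse 3 were higher and 3 lower, with a median of 0.0.

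Several lists of cell type markers also differed between the groups, and their part in the changes above was not tested. The counts of calls in these lists stand beside 20.5% of all genes higher and 15.4% lower. Excitatory neuron markers were present in all mice, with a summed level of 86561 to 121568 in bigenic and 127211 to 139729 in nontransgenic mice (2 higher and 4 lower of 10). Microglial markers summed to 4840 to 6379 against 6608 to 7811 (5 lower of 8), and astrocyte markers to 119814 to 140925 against 148188 to 159894 (4 lower of 8). Choroid plexus markers summed to 14097 to 29231 against 6564 to 8199 (4 higher of 5, with Ttr at 13600 and 724 on average). Of 11 such genes listed, only these 5 passed the filter of 10 RPM. Clic6, Kl and Prlr, all called as higher, passed it through bigenic mice alone, so that their sign is in part fixed by the filter. Sums of oligodendrocyte markers overlapped at 66375 to 88012 against 67095 to 84083 (1 higher of 10), as did those of endothelial markers at 3825 to 4382 against 4042 to 5177 (1 lower of 6). Inhibitory neuron markers summed to 15136 to 15723 against 16917 to 18678 (2 lower of 6). Immediate early genes summed to 4866 to 20463 against 6735 to 23215 (2 lower of 10), with the highest sums in the second bigenic and the fourth nontransgenic mouse, which also stood apart in the members. Egr2, called as lower there, had passed the filter through nontransgenic mice alone.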

How the data were processed

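The authors sequenced poly(A)+ RNA from the right cortex of 8 mice, 4 in each group, as 50-base single reads. Per the labels and methods, the authors trimmed with cutadapt, aligned to mm9 with Bowtie 0.12.7, kept uniquely placed reads and counted them over exons with bedtools. Whether counting used strand is not given in the sources used here, and 17 members have exons that overlap another gene.

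The first deposited table holds a score per transcript and mouse: normalized counts, as the authors rounded them after division by a factor for each mouse. Whole reads could be told only where 1 read exceeds 1 unit, so no count test was run. The second deposited table gives symbols and the authors' mean signal; its DESeq2 fold changes and p-values were not used. Mouse columns name a group but no replicate, no 2 mice agreed within sampling noise, and the sources name separate mice.

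Genes with at least 10 RPM, relative to the column total, in at least 1 mouse (10588) were fitted as log2(value + 1), which understates changes of low genes, with limma 3.58.1 (lmFit, eBayes with trend) in R 4.3.3, with Benjamini-Hochberg adjustment, a threshold of 0.05 and two-sided tests. The fit was tested on simulated data. Of the members, 53 passed the filter in every mouse. Exon positions, lengths and 50-base windows came from GENCODE vM1 on NCBIM37 (mm9), and promoters from RefSeq. No protein sequences were used. Tables were made with Python 3.11.15 and pandas 2.3.3. Alternatives were the pseudocount, the filter, rescaling, quantile normalization, array weights, stricter thresholds and leaving out each mouse.

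The members and all lists were chosen with earlier results of these data known. Named by rule were all HSP90, HSP70, HSP110, small HSP, HSF, BAG and mitochondrial chaperonin genes, the 4 members with the smallest p in each direction past the threshold in Dnaja, Dnajb, Dnajc and CCT, any member at a log2 fold change of 1 or more, the 2 such genes per direction in each partner list, and Tcp1. Hspbp1, Dnaja4, the Dnajb genes, the Dnajc genes other than Dnajc11 and Dnajc12, and Cct3, Cct5, Cct7 and Cct8 were named after their values were seen. So were Pfdn2, Pfdn4, Pfdn5 and the single marker genes.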

Additional observations from a re-analysis of the deposited data

Results flagged for a closer look

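In 15 of 126 groups of 4 mice (63 transcripts in 2 groups) 1 mouse lay farther from the other 3 than Dixon's 95% limit allows. Chance alone puts about 1 in 20 groups past that limit. The 15 came from 2 mice, 10 from the second bigenic and 5 from the fourth nontransgenic.

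In the second bigenic mouse Hsp90ab1 was at 63798 normalized counts against 38702 to 40021 in the other 3, Cct3 at 3541 against 2103 to 2134, Dnajb6 at 252 against 101 to 103, and Dnajc21 at 1836 against 548 to 658. Dnajc1 was at 862 against 513 to 540, Dnajc12 at 523 against 358 to 374, and Dnajc14 at 1700 against 1342 to 1373. It was low for Dnaja2, at 3590 against 5074 to 5222, for Dnajc18, at 2730 against 3321 to 3441, and for Hsf2, at 540 against 858 to 874.

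In the fourth nontransgenic mouse Hspa1a was at 260 against 88 to 107, Hspa1b at 219 against 60 to 76, Hspa2 at 978 against 782 to 803, Hsph1 at 16460 against 13277 to 13792, and Cct7 at 3436 against 3143 to 3169. The cause was not tested in either mouse.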

How the results depend on the processing

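No call on a single member changed direction under any alternative run. With array weights, which gave the second bigenic mouse a weight of 0.0844, 12 members were higher and 16 lower in place of 6 and 7, 8 Dnaj genes higher and 7 lower in place of 3 and 2, and 19 partner genes lower in place of 11. At an adjusted p under 0.01, 3 members and 0 CCT subunits were lower, and 9 partner genes were higher and 5 lower. With a change of at least 1.5-fold as well, 1 member was higher and 2 lower, 1 Dnaj gene higher and 1 lower, 0 CCT subunits and 1 disaggregation gene lower, and 8 partner genes higher and 3 lower. Leaving out 1 mouse at a time, 4 to 10 members were higher and 4 to 12 lower, 2 to 6 Dnaj genes were higher and 2 to 6 lower, 1 to 2 CCT subunits and 2 disaggregation genes were lower, and 13 to 24 partner genes were higher and 6 to 15 lower. The most member calls, 10 and 12, came without the second bigenic mouse, the fewest higher calls, 4, without the second nontransgenic mouse, and the fewest lower calls, 4, without the fourth bigenic or the first or the fourth nontransgenic mouse. Hspa12a, Hspa14 and Dnajc11 lost their call with no filter on low values, Hspa14 also after rescaling each mouse to the same total, and Dnajc11 after quantile normalization. Hsp90ab1 was called under rescaling, quantile normalization and array weights, and Dnajb4 and Bag5 under quantile normalization. The median of all genes stayed between -0.03 and 0.04 under every scaling and filter. No paired analysis was possible because the columns carry no replicate numbers. Reads on genes of 10.6 to 31.9 M per mouse limit the low members, such as Hspa1b at 29 to 219 normalized counts.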
